A study of Oryza sativa with 6 samples.

Results

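The Aux/IAA genes encode short-lived nuclear repressors of auxin signalling. They were taken here as all rice genes with a symbol or synonym IAA plus a number, with or without the prefix Os, in the RefSeq gene table. That table holds 28 such genes, and 26 of them, among 17905 genes named on the array, had a probe set that names 1 gene. IAA11 and IAA29 had none and were not analysed here. The numbers found run from IAA1 to IAA31 with gaps, so the 28 may not be the whole family. The arrays measured total RNA of whole young inflorescences, 4-5 mm long, of the rice mutant sro (3 arrays) and of wild type (3 arrays), both grown in a paddy field. The wild type is the Japonica variety 9522, and the labels give no allele, background line or gene number for sro. Stamens and carpels have begun to form in most spikelets at this length, and the labels place the peak of SRO expression there. The comparison shows which Aux/IAA transcripts were higher or lower in the mutant at that stage.

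An Aux/IAA protein binds auxin response factors (ARFs) on the promoters of auxin-responsive genes and recruits TOPLESS-type co-repressors, which keep those genes off. Auxin joins the Aux/IAA protein to a TIR1/AFB receptor, the protein is ubiquitinated and destroyed, and the response factors are released. Many Aux/IAA genes are themselves induced by auxin, which gives the pathway a negative feedback. In grasses as in other plants, auxin signalling is needed to form inflorescence branches, spikelets and floral organs.

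In sro, 12 of the 26 measured Aux/IAA genes changed, 8 lower and 4 higher. IAA7, IAA2, IAA14 and IAA6 had the largest falls, to measured levels of 0.356 to 0.513 of wild type, and IAA9 had the largest rise, 1.56-fold. A gene was called changed at an adjusted p under 0.05 in limma, with Benjamini-Hochberg adjustment over all 57258 probe sets tested. All adjusted p-values below are of this kind. Of the 26, 30.8% were called lower and 15.4% higher. Over the 17905 genes, each likewise represented by its brightest probe set, 26.6% were called, 19.4% lower and 7.28% higher, and over all probe sets 14.6% were called. The share called in the family, 46.2%, thus stands beside 26.6% for all genes, and that difference was not tested. The median log2 change of the 26 genes was -0.04, against -0.06 for all 17905, and the median absolute change was 0.20 against 0.15.

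The values are log2 intensities, in which a difference of 1 is a 2-fold difference, and they show each gene's difference between the genotypes but not which gene of the family is the most abundant. The 10 control probe sets for the fungus Magnaporthe averaged 4.69 ± 0.02 in sro and 4.65 ± 0.13 in wild type (SD, n = 3 arrays each) and served as a level without target. Of the 26 genes, 22 lay above that level in both genotypes (84.6%, beside 83.9% of all genes). IAA12, IAA16 and IAA20 lay below it in both, and IAA8 only in sro. Among the 22, 11 were called (50%), and among all genes above the level in both genotypes 29.9% were called. Both the 22 and the 11 include IAA14, whose sro mean of 4.69 equals that of the fungal probe sets after rounding. Arrays of 1 genotype correlated at 0.997 to 0.998 over all probe sets and arrays of different genotypes at 0.992 to 0.994. In whole inflorescences, fewer cells of a type and less RNA per cell cannot be told apart.

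**Figure D1:**
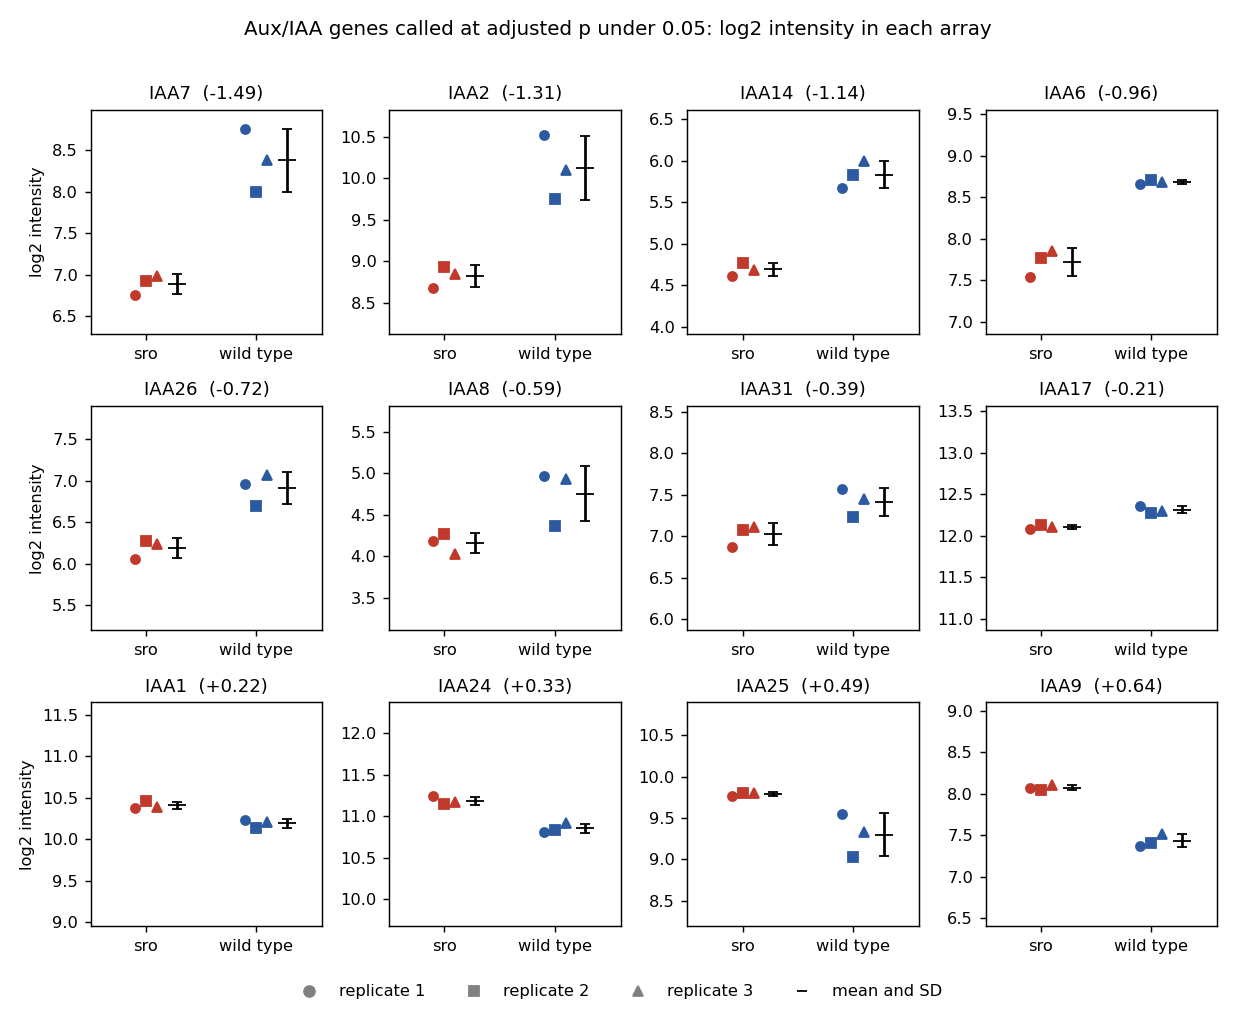
Log2 intensity of the 12 called Aux/IAA genes in each array (points, by replicate), with the group mean and SD beside them and the log2 change, sro minus wild type, in each title. Every panel spans the same range of log2 units, and the arrays of the 2 genotypes do not overlap in any panel, with gaps from 0.10 for IAA8 to 1.01 for IAA7.

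IAA7 (LOC4328796, on chromosome 2) had log2 intensities of 6.75, 6.93 and 6.99 in sro, against 8.75, 8.00 and 8.38 in wild type. All sro arrays lay below all wild-type arrays, and the wild-type arrays were spread over 0.76 log2 units against 0.24 in sro. The log2 change was -1.49 (SE 0.17, 95% interval -1.88 to -1.10, adjusted p = 0.00136), a level 2.81-fold higher in wild type. IAA2 (LOC4326775, chromosome 1) had 8.67, 8.93 and 8.85 in sro, against 10.52, 9.75 and 10.10 in wild type. Its wild-type arrays had the same highest and lowest replicates as those of IAA7, replicates 1 and 2, and lay 0.82 or more above every sro array. The change of IAA2 was -1.31 (SE 0.17, adjusted p = 0.00255), 2.47-fold.

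IAA14 (LOC4334431, chromosome 3) had 4.61, 4.77 and 4.69 in sro, against 5.67, 5.82 and 5.99 in wild type. In sro it was thus at the level of the fungal probe sets, while every wild-type array was above that level. Its log2 change was -1.14 (SE 0.09, adjusted p = 0.000293), the smallest p of the family. The measured ratio of 2.20-fold is against an sro level about equal to that of probe sets without target, so it does not give the size of the fall. IAA6 (LOC4326541, chromosome 1) is a gene whose loss in rice is known to increase tiller outgrowth. It had 7.54, 7.76 and 7.86 in sro, against 8.66, 8.71 and 8.68 in wild type. The wild-type arrays of IAA6 agreed within 0.05 log2 units, and the lowest of them lay 0.80 above the highest sro array. The change was -0.96 (SE 0.09, adjusted p = 0.000491), 1.95-fold. IAA7, IAA2 and IAA14 were thus called and measured at least 2-fold lower, 3 of 26 genes, where 1.2% of all genes were, and none of the 26 was called at least 2-fold higher, where 0.67% of all genes were.

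Smaller falls were found for IAA26, IAA8, IAA31 and IAA17. IAA26 (LOC4347643, chromosome 9) had 6.06, 6.28 and 6.23 in sro, against 6.96, 6.70 and 7.07 in wild type, a change of -0.72 (SE 0.11, adjusted p = 0.00384). The groups were separated by 0.42, more than the range of either. IAA8 (LOC4330571, chromosome 2) had 4.19, 4.27 and 4.03 in sro, all below the fungal level, against 4.97, 4.37 and 4.93 in wild type. Its change was -0.59 (SE 0.15, adjusted p = 0.0391). When the fungal level is taken as the floor for sro, the means leave a fall of 1.05-fold. Wild type replicate 2 lay only 0.10 above the highest sro array and below the fungal level of its own array, 4.73. IAA17 (LOC4338160, chromosome 5), measured by a probe set whose suffix marks probes shared by several transcripts, had 12.09, 12.13 and 12.10 in sro, against 12.36, 12.27 and 12.30 in wild type (change -0.21, SE 0.06, adjusted p = 0.0483). The spread within each group was under 0.1, so this 1.15-fold difference did not overlap, but it lay close to the threshold.

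IAA31 and IAA30 are next to each other on chromosome 12, with no gene between them in the RefSeq order. IAA31 (LOC4352722) had 6.87, 7.08 and 7.12 in sro, against 7.57, 7.23 and 7.44 in wild type (change -0.39, SE 0.10, adjusted p = 0.0411). IAA30 (LOC4352721) had 9.76, 9.76 and 9.79 in sro, against 9.85, 9.95 and 9.95 in wild type (change -0.15, SE 0.06, adjusted p = 0.135). With the probe sets used, both neighbours were lower in all sro arrays than in any wild-type array, but a second IAA31 probe set went the other way (below). IAA31 was called and IAA30 was not, and whether their changes differ was not tested. The other adjacent pair of the family, IAA11 and IAA12 on chromosome 3, could not be compared, since IAA11 was not measured and IAA12 lay below the fungal level (3.84 ± 0.12 in sro and 3.70 ± 0.10 in wild type, SD, n = 3 arrays each).

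The 4 genes that rose did so by less than 2-fold. IAA9 (LOC4331061, chromosome 2) had 8.06, 8.04 and 8.10 in sro, against 7.37, 7.40 and 7.52 in wild type (change 0.64, SE 0.06, adjusted p = 0.000754). Arrays within a group differed by 0.15 at most, and the groups were 0.53 apart. IAA25 (LOC4344471, chromosome 8) had 9.76, 9.80 and 9.81 in sro, against 9.54, 9.02 and 9.33 in wild type (change 0.49, SE 0.12, adjusted p = 0.0311). The sro arrays of IAA25 lay within 0.05 of each other, the wild-type arrays within 0.52.

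IAA24 (LOC4342573, chromosome 7) had 11.24, 11.15 and 11.17 in sro, against 10.81, 10.84 and 10.92 in wild type (change 0.33, SE 0.06, adjusted p = 0.010). IAA1 (LOC4323871, chromosome 1), whose overexpression in rice is known to weaken the inhibition of root growth by auxin, had 10.37, 10.46 and 10.39 in sro, against 10.23, 10.13 and 10.21 in wild type (change 0.22, SE 0.06, adjusted p = 0.0477). For both genes the lowest sro array was above the highest wild-type array, by 0.23 for IAA24 and 0.15 for IAA1.

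**Figure D2:**
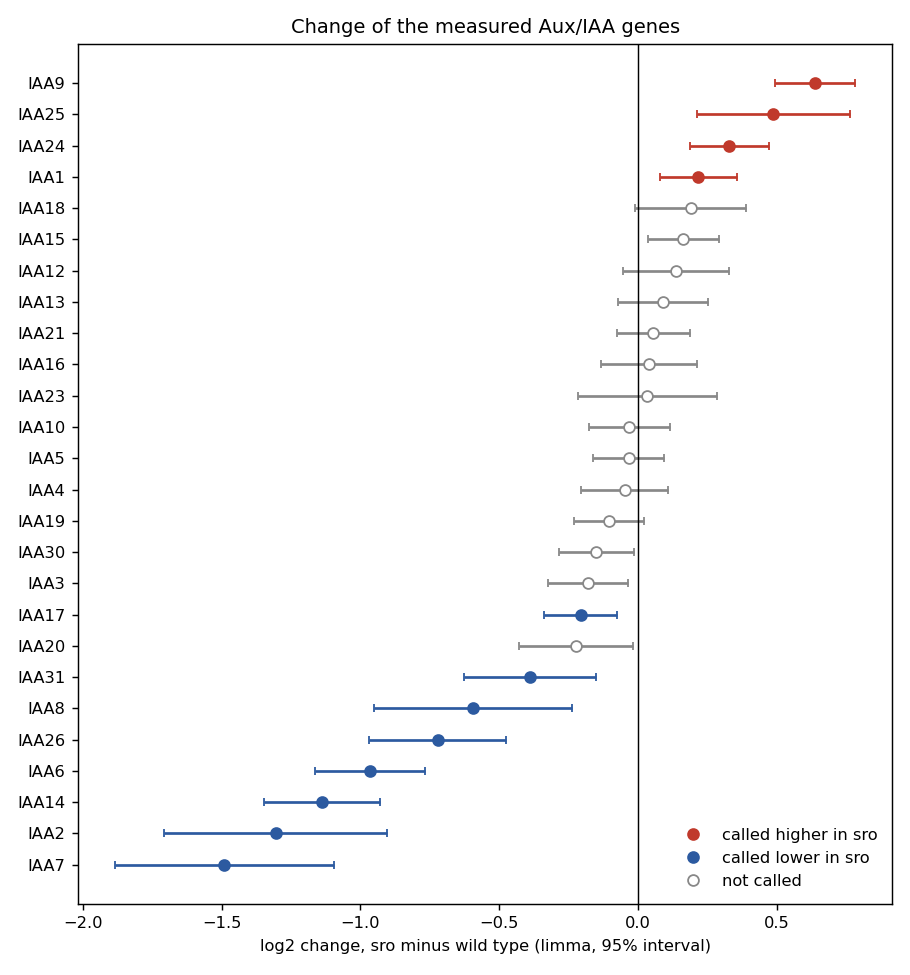
Log2 change, sro minus wild type, of the 26 measured Aux/IAA genes with its 95% interval from the limma fit, ordered from highest to lowest; filled points are called. The changes run from -1.49 (IAA7) to 0.64 (IAA9), and the 14 genes not called lie between -0.22 and 0.19.

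The remaining 14 genes had log2 changes between -0.22 and 0.19 and adjusted p-values between 0.0919 and 0.872. IAA3 (LOC4325890), which with IAA17 and IAA5 has the brightest probe sets of the family, had 12.56, 12.56 and 12.54 in sro, against 12.80, 12.64 and 12.76 in wild type (change -0.18, 95% interval -0.32 to -0.04, adjusted p = 0.0972). IAA5 (LOC4325515) had 11.92, 11.88 and 11.94 in sro, against 11.92, 11.95 and 11.97 in wild type, with an interval of -0.16 to 0.10 for the change. The arrays of IAA5 overlapped, and those of IAA3 did not. IAA20 (LOC4340245, -0.22, adjusted p = 0.144), measured below the fungal level, had 3.86, 4.14 and 3.86 in sro, against 4.11, 4.15 and 4.26 in wild type, and was called lower only without sro replicate 2 (-0.31, adjusted p = 0.0422). IAA18 (LOC4339365, 0.19, adjusted p = 0.198) had 8.29, 8.42 and 8.35 in sro, against 8.00, 8.30 and 8.19 in wild type. In both of these genes 1 array of each genotype fell within the range of the other.

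Genes known from rice roots were among the 14. IAA13 (LOC4334069), in which stabilising mutations block lateral roots, averaged 10.80 ± 0.01 in sro and 10.71 ± 0.11 in wild type (SD, n = 3 arrays each), with an interval of -0.07 to 0.25 for the change. IAA23 (LOC4341432), needed to maintain the quiescent centre of the root, averaged 5.17 ± 0.08 in sro and 5.13 ± 0.22 in wild type, with an interval of -0.22 to 0.29. IAA10 (LOC4331149), which a rice dwarf virus protein is known to stabilise, averaged 11.36 ± 0.04 in sro and 11.39 ± 0.08 in wild type, with an interval of -0.18 to 0.12. For IAA13 and IAA10 these intervals leave out changes of the size seen in IAA6 or IAA9. The interval of IAA23 does so too, but its wild-type mean is near the fungal level there, 4.65. A fall like that of IAA6 could therefore not show in full for IAA23. The other uncalled members were IAA4, IAA12, IAA15, IAA16, IAA19, IAA21 and IAA30. Of the 14, IAA3, IAA15, IAA19 and IAA30 did not overlap between the genotypes, so that 16 of the 26 genes did not (61.5%), 11 with sro lower and 5 with sro higher. Over all genes 53.3% did not overlap, 35.8% with sro lower and 17.5% with sro higher.

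Of the measured genes, 6 had further probe sets, 8 in all. These did not always go with the one used. For IAA8 a second probe set, below the fungal level in both genotypes, had 3.64, 3.75 and 3.62 in sro, against 3.44, 3.43 and 3.43 in wild type, a change of 0.24 (adjusted p = 0.0351) against -0.59 for the one used. For IAA31 a second probe set above the fungal level had 5.70, 5.94 and 5.70 in sro, against 5.65, 5.40 and 5.55 in wild type (0.25, adjusted p = 0.122), again opposite to the one used. The opposing probe set of IAA8 thus did not measure above the level without target. That of IAA31 was not called, but all its sro arrays lay above all its wild-type arrays, so the direction for IAA31 differs by probe set. IAA1 had a dimmer probe set with a change of -0.02 (adjusted p = 0.93), and IAA3 one with -0.17 (adjusted p = 0.324). IAA4 and IAA23 were not called with the probe sets used, which carry a suffix for probes that may cross-hybridise, and each had a dim probe set below the fungal level that was called lower, at -0.33 (adjusted p = 0.0207) and -0.28 (adjusted p = 0.048). The other 9 called genes rest on 1 probe set each.

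**Figure D3:**
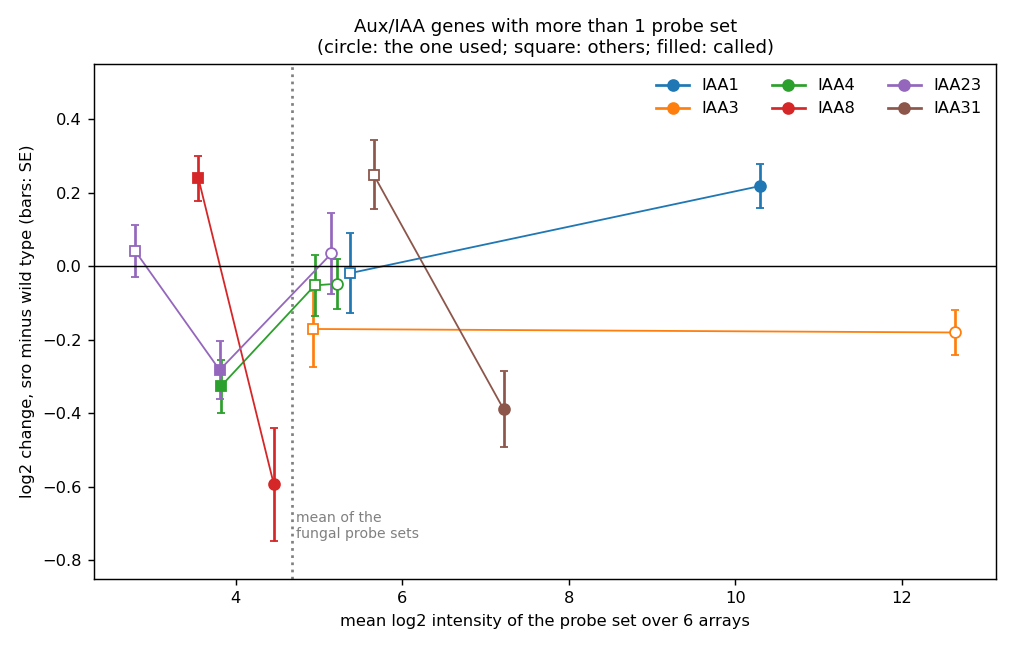
Log2 change (sro minus wild type, bars show the SE) of each probe set against its mean log2 intensity, for the 6 Aux/IAA genes with more than 1 probe set; lines join probe sets of a gene and the dotted line is the mean of the fungal probe sets. IAA8 and IAA31 have probe sets on both sides of 0.

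The calls differed in how far they rested on single arrays. IAA2, IAA6, IAA7, IAA9, IAA14, IAA24 and IAA26, 7 of the 12, were called whichever array was left out. Their changes then ran from -1.68 to -1.30 for IAA7, from -1.49 to -1.11 for IAA2, from -1.22 to -1.06 for IAA14, from -1.03 to -0.87 for IAA6 and from 0.61 to 0.68 for IAA9. IAA1 (0.19 to 0.24, adjusted p up to 0.139) and IAA17 (-0.23 to -0.18, adjusted p up to 0.153) lost the call with any of the 6 arrays left out. IAA8 (-0.79 to -0.49, adjusted p up to 0.132) and IAA31 (-0.48 to -0.31, adjusted p up to 0.123) were called only without wild type replicate 2. IAA25 was called without wild type replicate 1 or 2, with changes of 0.35 to 0.61 over all 6 fits and adjusted p up to 0.0931. The number of called Aux/IAA genes was 7 without sro replicate 1, sro replicate 3 or wild type replicate 3.

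**Figure D4:**
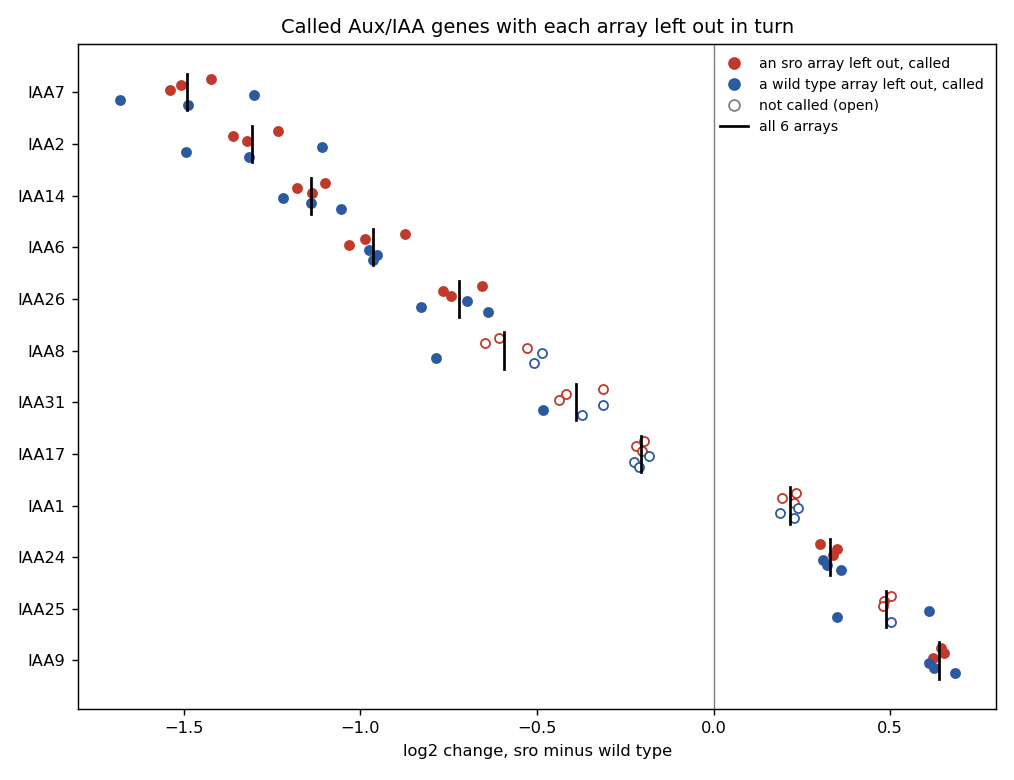
Log2 change, sro minus wild type, of the 12 called Aux/IAA genes with each of the 6 arrays left out in turn (points, coloured by the genotype of the array left out; open points are not called), beside the change over all 6 arrays (black bar). No gene could change sign here, since the arrays of the genotypes do not overlap in any of the 12. IAA1 and IAA17 have only open points.

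Wild type was the more spread group. The range over the 3 arrays was larger in wild type than in sro for 21 of the 26 genes, as it was for 67.7% of all genes. IAA2, IAA7, IAA8 and IAA25 had wild-type ranges over 0.5, and in each of them replicate 1 was the highest and replicate 2 the lowest. The same 2 arrays were the extremes in 10 of the 26 genes, and replicate 2 was the lowest in 13 of 26, beside 43.8% of all genes. In IAA25 the wild-type array nearest to sro was replicate 1, and in IAA2, IAA7 and IAA8 it was replicate 2.

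Some controls and markers moved with genotype. A probe set for the 5 prime end of the dap labelling spike had 9.83, 7.40 and 8.95 in sro, against 7.06, 7.01 and 7.24 in wild type. With sro represented by replicate 2 alone, the sro array nearest to wild type in the spike, the changes were -1.45 for IAA7, -1.19 for IAA2, -1.06 for IAA14, -0.92 for IAA6 and 0.61 for IAA9. The 12 called genes had to keep their sign in this fit, since their arrays do not overlap between the genotypes. The kept sign therefore tests nothing about the spike. IAA14 (adjusted p = 0.0348) and IAA6 (adjusted p = 0.0171) were then still called, with sro assumed to vary like wild type. All 9 inflorescence and flower markers were above the fungal level in both genotypes, and their mean log2 level was 10.55 to 10.60 in sro and 10.58 to 10.73 in wild type. Of them 4 were called higher and 1 lower. The lower one, LAX1, a regulator of axillary meristems, had 7.30, 7.43 and 7.24 in sro, against 10.07, 8.32 and 9.51 in wild type, where replicates 1 and 2 were again the highest and the lowest. The 3 leaf or chloroplast markers averaged 7.21 to 7.36 in sro and 7.86 to 8.12 in wild type (2 called lower), and the 3 tapetum and late pollen markers 8.64 to 8.75 in sro and 4.86 to 5.91 in wild type (2 called higher). RTS and C6, both known from the tapetum, were below the fungal level in wild type. Of the 7 seed storage markers, 2 were above the fungal level in both genotypes and none was called. The part of these differences in the Aux/IAA changes was not tested.

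The partners of the Aux/IAA proteins and other auxin genes were counted in the same fit. Of 38 measured, 2 were called higher, 16 lower and 20 not called, beside 7.28% higher and 19.4% lower over all genes. The table held no TIR1 or AFB symbol, so the receptors were not analysed here. Of 17 measured ARF genes, the response factors that Aux/IAA proteins repress, 11 fell, none rose and 6 were not called, with a median log2 change of -0.35. Falls also outnumbered rises over all genes (19.4% and 7.28%, median -0.06), and the difference from all genes was not tested. ARF10 (LOC4336419) averaged 5.79 ± 0.07 in sro and 6.75 ± 0.09 in wild type (SD, n = 3 arrays each; change -0.96, adjusted p = 0.000214). ARF15 (LOC9268260) and ARF2 (LOC4325895), listed also as OsETTIN1 and OsETTIN2 after an Arabidopsis gene of carpel patterning, had changes of -0.69 (adjusted p = 0.00139) and -0.52 (adjusted p = 0.00113). The TOPLESS-type co-repressor genes TPR2 and TPR3 were not called, with changes of -0.17 (adjusted p = 0.313) and 0.09 (adjusted p = 0.342). A gene listed as ASP1 and OsAsp1 (LOC4349962, chromosome 11) was counted with them by symbol alone. Whether it encodes a TOPLESS-type protein was not checked. Its change was 0.15 (adjusted p = 0.388), it lay below the fungal level in wild type, and it is among the 38.

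Of 9 measured GH3 genes, most of whose enzymes conjugate auxin to amino acids, 3 fell, 1 rose and 5 were not called, few genes beside 19.4% lower and 7.28% higher over all genes. GH3.5 (LOC4339756), listed also as the jasmonate-conjugating gene JAR1, had a change of -0.89 (adjusted p = 0.00111), GH3.1 (LOC4327043) -0.35 (adjusted p = 0.00803) and GH3.11 (LOC4344247) 0.55 (adjusted p = 0.00353). SAUR39 (LOC9271092), a small auxin-induced gene known to reduce auxin synthesis and transport in rice, rose by 1.05 on the log2 scale (6.86 ± 0.30 in sro and 5.81 ± 0.33 in wild type, adjusted p = 0.00936). Both auxin synthesis genes measured fell, TAR2 (LOC4325198, also FIB) by 0.48 (adjusted p = 0.00207) and YUCCA1 (LOC9269185) by 0.68 (adjusted p = 0.00926). Only these 2 genes of the RefSeq table carried a synthesis symbol that was searched for, and any others were not counted. The probe sets used for YUCCA1 and GH3.11 carry the suffix for probes that may cross-hybridise. A second YUCCA1 probe set, below the fungal level in both genotypes, was not called (-0.32, adjusted p = 0.0603). SAUR39 (adjusted p = 0.0991) and YUCCA1 (adjusted p = 0.0879) lost the call in an unmoderated linear model. None of the 6 transport genes was called in limma, and PIN2, PIN6 and PIN9 lay below the fungal level in both genotypes, so that 3 were measured above it. The 3 with the smallest p were PIN3T (LOC4326565, 0.22, adjusted p = 0.132, and 0.0372 with an intensity trend and robust prior), PIN2 (LOC4341736, -0.15, adjusted p = 0.17) and PIN6 (LOC4324368, 0.16, adjusted p = 0.27).

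**Figure D5:**
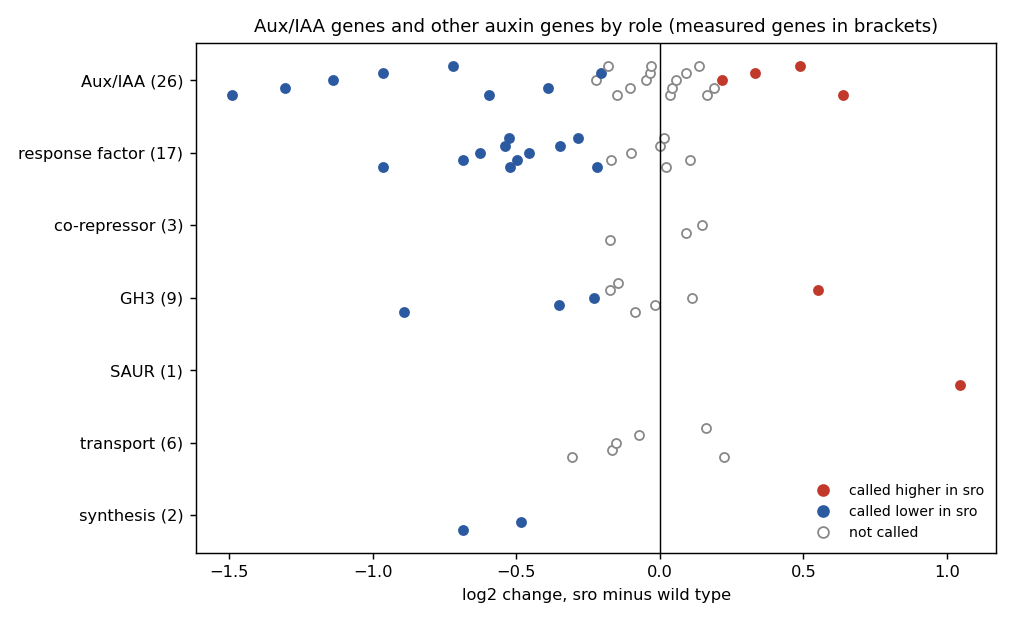
Log2 change, sro minus wild type, of the measured Aux/IAA genes and of the other auxin genes by role, 1 point per gene (filled: called). The co-repressor row includes ASP1, placed there by symbol alone. Called Aux/IAA genes lie on both sides of 0, 8 lower and 4 higher, while all 11 called response factor genes lie below 0; the vertical spread within a row has no meaning.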

How the data were processed

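The deposited values are log2 intensities, 1 per probe set and array. The submitters' processing notes name RMA and Partek without version, role or order. Per the labels' protocols, 500 ng of total RNA per sample was labelled for an Affymetrix array. The values themselves show that the authors' scale is log2. Settings, build and detection calls are not stated in what was used here, so no coordinates are printed, and the number of arrays limits precision.

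Values were used as deposited. Of 57381 probe sets, 123 Affymetrix controls were left out. Probe sets that name 1 gene (22436) were paired with RefSeq genes (assembly ASM3414082v1) by gene number, and the brightest over 6 arrays represented each gene. A gene listed under several numbers took the one that no other gene holds alone. IAA4, IAA5 and IAA13 are also listed as IAA20, IAA8 and IAA1. The comparison used limma 3.58.1 in R 4.3.3 (lmFit, eBayes without trend, no covariates, two-sided) and was tested on simulated data. There, 0% of simulated log2 changes of 0.25 were recovered, 70% of 0.5, 84% of 1 and 98% of 2. The simulation changed 50 probe sets per size, far fewer than were called in the data. Python 3.11.15 with pandas 2.3.3, scipy 1.17.1 and matplotlib 3.10.9 did the rest.

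Values in every array are given for called members, for IAA6, IAA9 and IAA14, for the 3 brightest, for the 3 uncalled with the largest change and for neighbours of called members (at most 3 genes between). Of other auxin genes, up to 3 with the smallest p per role are named. The members and lists were chosen with earlier results of these data known. IAA10, IAA12, IAA13 and IAA23 were also described. The labels call the replicates biological, without saying how plants were pooled. Same-numbered replicates of the 2 genotypes were not paired. No list was tested as a set.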

Additional observations from a re-analysis of the deposited data

How the results depend on the processing

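The number of called Aux/IAA genes was 12 over all 6 arrays and 7 to 10 with 1 array left out. It was 8 with the replicate number as a block and 8 in an unmoderated linear model. Other normalizations, an intensity trend with a robust prior, a filter on dim probe sets and other choices of probe set gave 11 to 15. Of all probe sets, median centring called 14.3%, quantile normalization 14.6%, the trend and robust prior 19.5% and the dim filter 28.8%. The dim filter kept 22 of the 26 genes, with 12 called. The trend and robust prior called 15 of the 26. A fit of 1 probe set per gene also called 15, beside 38% of all genes. With sro represented by replicate 2 alone it was 2, and that fit has fewer samples. Over all probe sets the counts were 8377 as reported, 4589 to 7907 with 1 array left out, 6315 with the block, 4965 in the unmoderated model and 668 with sro replicate 2 alone. Other auxin genes called numbered 18, 14 to 18 with 1 array left out and 1 with sro replicate 2 alone. Replicate numbers did not pair the samples (correlations of deviations -0.019, -0.028 and -0.0037 for numbers 1, 2 and 3), and under the block IAA1, IAA8, IAA17 and IAA31 missed the threshold. IAA6 and IAA14 were called under all 16 alternatives. The only signs that turned among named genes were those of IAA8, at 0.24 with its probe set of smallest p, and PIN6, at -0.015 with sro replicate 2 alone. For PIN6 the cause was not tested. In the unmoderated model IAA2 (adjusted p = 0.0548), IAA26 (adjusted p = 0.0553) and IAA1 (adjusted p = 0.0555) missed the threshold at the same changes, as did IAA8, IAA25 and IAA31. YUCCA1 and SAUR39 missed it there too. IAA3 and IAA30 passed it with the trend and robust prior, and in a fit of 1 probe set per gene. PIN3T passed it with the trend and robust prior. Averages over the probe sets of a gene were 0.10 for IAA1, -0.18 for IAA8 and -0.07 for IAA31, none of them called. IAA1 was also lost with median centring (0.20) and IAA31 with quantile normalization (-0.32).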
